A study of Mus musculus with 14 samples.

Results

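The genes described here are 9 genes, most of them known from fetal liver or liver tumours: Ly6d, Apela, Golm1, Tff3, Afp, Gpc3, Igf2, Igf2bp3 and H19. Not all of them are silent in adult liver, as the levels of Golm1 and Tff3 below show. They were chosen from results of these same arrays, in which Ly6d and Apela stood far higher in Lmna knockout livers, so their genotype differences are given as descriptions without a test. Each gene was read from the probe sets whose annotation gives its symbol alone, keeping the one with the highest mean over the 14 arrays. Of the 9 genes 8 were measured this way, each by 1 probe set, among 22180 genes in the table. The only probe set that names H19 also names Mir675, so H19 has no value of its own below.

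RNA from the livers of 14 male C57BL/6 mice was read on Affymetrix whole-transcript arrays, 1 liver each, which measure a gene through short DNA probes along its length. KO livers were LMNA flx/flx; Alb-cre+ (both Lmna copies floxed), HET livers LMNA flx/+; Alb-cre+ (1 floxed copy) and WT livers LMNA +/+; Alb-cre+ (none). All mice carried the Cre recombinase under the albumin promoter, which is active in cells of the hepatocyte lineage. On chow there were 3 KO livers (H1, H2 and I1, 38.9 weeks old), 3 HET livers (F1, F2 and P1, 24 to 26.4 weeks) and 2 WT livers (G1 and N1, 27 and 24.6 weeks). On HFD, the high-fat Surwit diet for 14 weeks with drinking water that held 42 g/L sugar (55% fructose and 45% sucrose), there were 3 KO livers (C2, C3 and C4, 35.3 weeks) and 3 HET livers (A2, B1 and B2, 30 to 30.4 weeks). KO mice were older than HET mice on both diets, so age and genotype cannot be told apart. HET mice were older on HFD than on chow and KO mice younger, so age and diet cannot be told apart either. Levels are log2 intensities, on which 1 unit is a factor of 2, and the median of all probe sets was 2.21 to 2.30 in every array. Values near that median are dim and carry little information on the size of a difference. The number of arrays limits the precision.

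Oncofetal genes are active in fetal hepatocytes, are shut off around birth and can return when adult hepatocytes divide or turn into tumour cells. Afp is the best known of them, the main serum protein of the fetus, and in mice its shut-off depends on the repressor Zhx2. Igf2, a fetal growth factor, and H19, a long non-coding RNA, are imprinted neighbours that are silenced together in mouse liver after birth. Gpc3, a heparan sulfate proteoglycan of the cell surface, and Golm1, a Golgi membrane protein also called GP73, are used as markers of human liver cancer. Igf2bp3 is an RNA-binding protein of fetal tissue, Tff3 a secreted trefoil peptide of mucus-making epithelium, Apela (also called Elabela) a hormone of the early embryo that binds the apelin receptor, and Ly6d a small surface protein known from early B lymphocytes and squamous epithelium.

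Lmna itself is the check of the genotype labels. On chow its level was 4.09, 3.78 and 3.67 in KO livers, against 4.29, 4.40 and 4.25 in HET livers and 4.50 and 4.43 in WT livers. The KO livers lay below the controls without overlap. The difference was -0.62 ± 0.14 against WT (adjusted p = 0.0393) and -0.47 ± 0.12 against HET (adjusted p = 0.0823). On HFD the KO livers had 3.90, 4.07 and 3.99 and the HET livers 4.07, 4.07 and 4.30, which overlapped (-0.16 ± 0.12, adjusted p = 0.517). Where the floxed part of the gene and this probe set lie is not stated in the labels, so this is a partial check.

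Promoter sequence was at hand for 6 of the 8 measured genes, from RefSeq on GRCm38.p6. The 250 bases before the start are shown for Apela and Golm1, which were high together in KO livers, and for Afp, an oncofetal gene that was not. Gpc3, Igf2 and Igf2bp3 were not high in all KO livers either, and their windows are not shown. Capitals mark matches to short motifs searched on both strands.
Apela (chr8:65037337-65037586, minus strand): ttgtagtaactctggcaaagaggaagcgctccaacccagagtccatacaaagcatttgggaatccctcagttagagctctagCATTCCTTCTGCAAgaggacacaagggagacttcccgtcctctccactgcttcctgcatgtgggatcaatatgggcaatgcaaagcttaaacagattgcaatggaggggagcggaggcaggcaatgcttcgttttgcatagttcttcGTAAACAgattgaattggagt
Golm1 (chr13:59675785-59676034, minus strand): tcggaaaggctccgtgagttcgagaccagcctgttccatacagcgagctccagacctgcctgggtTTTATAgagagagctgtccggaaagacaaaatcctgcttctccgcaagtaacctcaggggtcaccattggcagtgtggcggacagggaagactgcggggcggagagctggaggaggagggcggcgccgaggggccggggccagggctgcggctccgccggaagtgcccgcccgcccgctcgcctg
Afp (chr5:90490464-90490713, plus strand): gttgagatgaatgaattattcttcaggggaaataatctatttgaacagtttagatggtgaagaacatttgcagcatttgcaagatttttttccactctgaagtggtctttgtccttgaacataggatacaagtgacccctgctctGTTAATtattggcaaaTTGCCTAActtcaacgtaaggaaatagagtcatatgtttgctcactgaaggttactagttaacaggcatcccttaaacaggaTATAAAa

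In the Apela window the capitals are CATTCC, a match to the TEAD motif GGAATG on the other strand, directly followed by TTCTGCAA, a match to the C/EBP motif TTGCNNAA, and then GTAAACA, the FOX motif, at positions -21 to -15 from the start. In the Golm1 window they mark TTTATA, the TATA box letters TATAAA read on the other strand, at positions -185 to -180. In the Afp window they mark the HNF1 site letters GTTAAT, the C/EBP match TTGCCTAA and TATAAA at positions -7 to -2. Among 32851 mouse promoter windows of the same length 12.6% hold the TEAD letters, 9.56% those of C/EBP, 3.17% those of FOX, 6.43% the HNF1 site letters and 12.4% TATAAA, so these matches are descriptions only. None of the 3 windows holds the AP-1 letters TGANTCA (6.75% of windows) or the E box CACGTG (6.02%). Base composition differed widely: the Golm1 window is 65.6% GC with 20 CpG, the Apela window 48.0% with 5 and the Afp window 36.0% with 1, beside medians of 52.4% and 6 over all windows. Among the windows not shown, that of Gpc3 is 71.6% GC, that of Igf2bp3 60.4% and those of Igf2 47.6% to 68.8%.

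Ly6d, Apela and Golm1 were higher in every KO liver than in every HET or WT liver, on both diets, and the other 5 genes were not. The share of all genes separated in this way is not given here. The members were also chosen from these arrays, so nothing is read from the count. By another criterion, an adjusted p under 0.05 (limma), 1.44% of all genes were called higher in KO than HET livers on chow. On HFD the share was 5.50%. Ly6d stood at 7.20 (H1), 7.80 (H2) and 8.73 (I1) in KO livers on chow, against 3.32, 3.18 and 2.90 in HET and 3.71 and 3.64 in WT livers. On HFD it stood at 9.35, 9.15 and 9.47 in KO livers, against 3.75, 3.76 and 3.38 in HET livers. The lowest KO liver was thus far above the highest control, and the 8 control livers spread over less than 1 unit. The KO mean on chow was 7.91 ± 0.77 (SD, n = 3), 27.4-fold above HET (4.77 ± 0.28, log2 difference with its standard error) and 18.8-fold above WT (4.23 ± 0.32). On HFD the KO mean was 9.32 ± 0.16 (SD, n = 3), 51.7-fold above HET (5.69 ± 0.28). In order of level, KO on HFD came first and KO on chow next. WT on chow, HET on HFD and HET on chow followed, and the spread of HET on HFD took in the WT livers.

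Apela, the ligand of the apelin receptor, also had its highest levels in KO livers on HFD and the next in KO livers on chow, at lower intensity. Its level was 4.39, 5.43 and 6.05 in KO livers on chow (H1, H2 and I1), against 1.89, 2.16 and 1.29 in HET and 1.42 and 1.60 in WT livers. On HFD it was 6.63, 6.82 and 7.38 in KO livers (C2, C3 and C4), against 1.66, 1.36 and 1.39 in HET livers. All 8 control livers lay below the array medians, where the size of a difference is uncertain. On this scale the KO livers were 11.4-fold above HET (3.51 ± 0.35) and 13.7-fold above WT on chow (3.78 ± 0.39), and 44.4-fold above HET on HFD (5.47 ± 0.35). The 3 control groups overlapped one another, while KO on HFD lay above KO on chow without overlap.

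Golm1 differed less and was measurable in every liver. KO livers had 5.05, 6.10 and 6.13 on chow, against 4.45, 4.26 and 4.68 in HET and 4.46 and 4.59 in WT livers. KO livers had 6.61, 6.35 and 7.35 on HFD, against 4.04, 4.66 and 4.54 in HET livers. KO liver H1 was the closest to the controls. The KO mean was 2.45-fold above HET on chow (1.30 ± 0.30), 2.36-fold above WT (1.24 ± 0.34) and 5.13-fold above HET on HFD (2.36 ± 0.30). The 3 control groups overlapped one another.

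**Figure D1:**
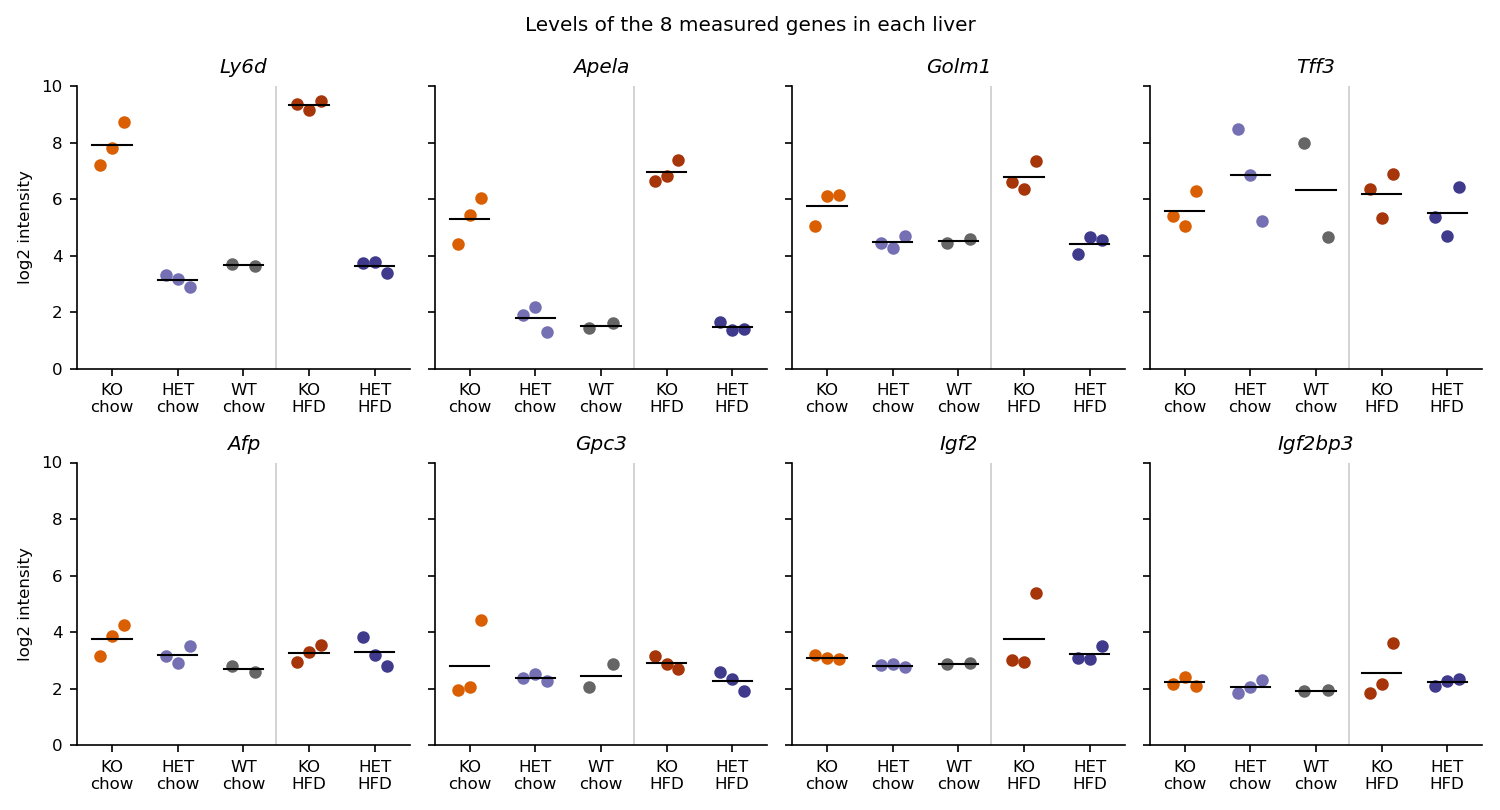
Level of each measured gene in each of the 14 livers, as log2 intensity on the vertical axis and group on the horizontal axis, where a point is a liver and a bar the group mean. Ly6d, Apela and Golm1 are higher in all 6 KO livers than in the 8 HET and WT livers, and Gpc3, Igf2 and Igf2bp3 each have a single high KO liver at 4.41, 5.37 and 3.62.

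Afp, the classical fetal serum protein, did not share this pattern. Its level was 3.16, 3.87 and 4.24 in KO livers on chow, against 3.15, 2.92 and 3.50 in HET and 2.78 and 2.57 in WT livers. On HFD it was 2.93, 3.31 and 3.55 in KO livers, against 3.84, 3.19 and 2.81 in HET livers. KO and HET livers overlapped on both diets, and on chow the HET livers F1 and F2 and both WT livers lay below all 3 KO livers. The differences were 0.57 ± 0.29 (KO minus HET) and 1.08 ± 0.33 (KO minus WT) on chow and -0.01 ± 0.29 (KO minus HET) on HFD. No group mean passed 3.76. Neighbours in the order of means overlapped, except that the 3 HET livers on chow lay above the 2 WT livers.

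Gpc3, Igf2 and Igf2bp3 lay near the array medians in most livers and stood out in 1 KO liver each. Gpc3, the proteoglycan, was at 1.93, 2.04 and 4.41 in KO livers on chow, against 2.38, 2.51 and 2.26 in HET and 2.06 and 2.86 in WT livers. It was at 3.14, 2.86 and 2.69 in KO livers on HFD, against 2.57, 2.35 and 1.91 in HET livers. The chow mean of KO livers thus rests on liver I1, which was 1.27 above the next of the 14 arrays, whereas on HFD all 3 KO livers lay slightly above the HET livers (0.62 ± 0.50). On chow the KO minus HET difference was 0.41 ± 0.50, and -0.40 without I1.

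Igf2, the fetal growth factor, had 3.19, 3.07 and 3.03 in KO livers on chow, against 2.82, 2.86 and 2.76 in HET and 2.85 and 2.90 in WT livers. On HFD KO livers had 3.00 (C2), 2.94 (C3) and 5.37 (C4), against 3.08, 3.04 and 3.50 in HET livers. On chow the 3 KO livers lay just above the 5 controls, by less than 0.5 unit, and on HFD a single liver, C4, was 1.87 above every other array. The difference on HFD was 0.56 ± 0.46, and -0.24 without C4. The difference on chow was 0.28 ± 0.46 against HET and 0.22 ± 0.52 against WT.

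Igf2bp3, the RNA-binding protein, was high in the same liver. KO livers on HFD had 1.84 (C2), 2.15 (C3) and 3.62 (C4), against 2.09, 2.26 and 2.33 in HET livers, and C4 was 1.20 above every other array. On chow KO livers had 2.16, 2.42 and 2.08, against 1.84, 2.04 and 2.29 in HET and 1.90 and 1.95 in WT livers. All groups but KO on HFD lay within 1 unit of one another and of the array medians. The KO minus HET difference was 0.16 ± 0.33 on chow and 0.31 ± 0.33 on HFD. The HFD difference was -0.23 without C4.

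Such single highs were rare over the table. Liver C4 had 23 genes that were at least 1 unit above all 13 other arrays (0.104% of genes), the most of any array, and Igf2 and Igf2bp3 were among them. Liver I1 had 10 such genes (0.0451%), with Gpc3 among them, and the other 12 arrays had 1 to 15, none of them a member. Counted per liver, the members that lay at least 1 unit above the highest HET or WT array were 2 of 8 in H1, 3 in H2, 4 in I1, 3 in C2, 3 in C3 and 5 in C4, beside 0.388%, 0.672%, 1.26%, 1.47%, 1.10% and 1.74% of all genes. Ly6d and Apela were counted in all 6 of these livers and Golm1 in 5 of them.

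Tff3, the trefoil peptide, varied more inside the control groups than between genotypes. It was at 5.39, 5.03 and 6.29 in KO livers on chow, against 8.49, 6.86 and 5.21 in HET and 7.99 and 4.66 in WT livers. On HFD it was at 6.37, 5.32 and 6.88 in KO livers, against 5.37, 4.68 and 6.42 in HET livers. The 2 WT livers differed by over 3 units, and all 5 groups overlapped. The differences were -1.28 ± 0.87 (KO minus HET) and -0.76 ± 0.98 (KO minus WT) on chow and 0.70 ± 0.87 (KO minus HET) on HFD. Without WT liver G1 the KO minus WT difference was 0.91.

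Besides the 1.44% of genes called higher, 0.478% were called lower in KO than HET livers on chow, and besides the 5.50%, 2.06% on HFD. Against WT on chow 1.24% were called higher and 0.410% lower. Of the 8 members 3 were past that threshold as higher against HET on chow and on HFD (Ly6d, Apela and Golm1), and 2 against WT (Ly6d and Apela), with 0 lower. The choice of members used these contrasts, so nothing is read from the counts. The median member difference was 0.49, 0.71 and 0.66 in these 3 contrasts, beside -0.01, 0.00 and -0.02 over all genes. Centring each array on its median gene shifts all KO differences down, to a median of -0.13 on chow against HET and against WT and of -0.24 on HFD. It also turns the share of higher genes among those called to 48.7%, 59.2% and 20.5%, beside 75.1%, 75.2% and 72.8% as deposited. A second quantile normalization gave 57.2% on HFD. Ly6d, Apela and Golm1 were higher in KO livers under both. Golm1 left the chow count against HET without any of G1, N1, F1, F2, P1, H2, I1, A2, B1, B2 or C2, and without H1 both Golm1 and Afp joined the count against WT. The KO livers on chow all had 1 age, as did those on HFD. A linear age term thus rests on age differences inside the HET and WT groups. It is extended from there to older mice and cannot separate age from genotype. It moved Tff3 on chow against HET from -1.28 to -16.67. With this term 0 members were called on chow, where Ly6d was at 3.42, Apela at 1.47 and Golm1 at 2.90 against HET. On HFD they were at 5.16, 4.68 and 2.98, and Golm1 left the count.

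**Figure D2:**
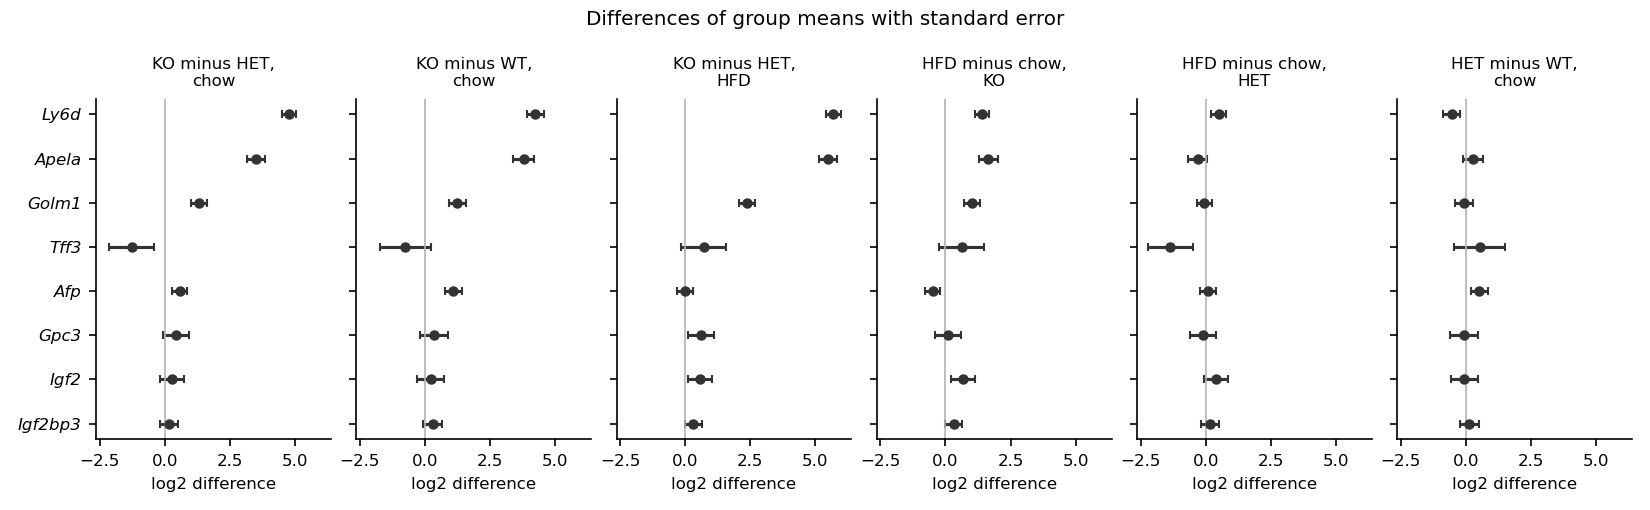
Log2 differences of group means for the 8 measured genes in 6 contrasts, 1 per panel, where bars are standard errors from the fit over all 14 arrays. Ly6d and Apela lie at 3.51 to 5.69 in the 3 panels that compare KO with HET or WT, at 1.41 and 1.65 for HFD against chow in KO livers, and within 0.54 of 0 in the remaining panels.

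No member was called between livers with 1 floxed Lmna copy and livers with none. For HET against WT on chow 0 of 8 members passed, as did 0.0% of all genes (limma). At an unadjusted p under 0.05 there were 0 members and 954 genes (4.30%). Ly6d was at -0.54 ± 0.32, Afp at 0.52 ± 0.33, Tff3 at 0.53 ± 0.98, Apela at 0.27 ± 0.39 and the other 4 members between -0.07 and 0.13, all with an adjusted p of 0.999.

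Diet was compared within each genotype, where the diet groups also differed in age. HET mice were 30 to 30.4 weeks old on HFD and 24 to 26.4 on chow. KO mice were 35.3 weeks old on HFD and 38.9 on chow. A diet difference below can therefore not be told apart from an age difference. In HET livers 0 of 8 members passed between HFD and chow, beside 0.198% of all genes, and the adjusted p values ran from 0.592 for Ly6d (0.50 ± 0.28) to 0.976 for Golm1 (-0.05 ± 0.30). At an unadjusted p under 0.05 there were 0 members and 2272 genes (10.2%). Apela was at -0.31 ± 0.35 and Tff3 at -1.36 ± 0.87.

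In KO livers the means of Ly6d, Apela and Golm1 were higher on HFD than on chow, but the differences did not pass the threshold. This test uses the KO chow livers on which the members were chosen. Ly6d was 2.66-fold higher (1.41 ± 0.28, unadjusted p = 0.000271, adjusted p = 0.0637), Apela 3.14-fold (1.65 ± 0.35, adjusted p = 0.0735) and Golm1 2.02-fold (1.01 ± 0.30, adjusted p = 0.213). Over the 22180 genes 0.316% passed, and 0 of 8 members did, while 3 members and 2455 genes (11.1%) had an unadjusted p under 0.05. Without KO chow liver I1 both Ly6d (adjusted p = 0.0018) and Apela (adjusted p = 0.0164) passed. The other 5 members were at -0.49 ± 0.29 (Afp), 0.67 ± 0.46 (Igf2), 0.62 ± 0.87 (Tff3), 0.32 ± 0.33 (Igf2bp3) and 0.10 ± 0.50 (Gpc3), with adjusted p values of 0.594 to 0.971. Without C4 the Igf2 difference was -0.13 and that of Igf2bp3 -0.22.

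Whether the genotype difference itself was larger on HFD was tested as an interaction. The interaction shares arrays with the choice of members and holds the age differences between groups. It was 1.96 ± 0.49 for Apela (adjusted p = 0.226), 1.06 ± 0.43 for Golm1 (adjusted p = 0.438) and 0.92 ± 0.40 for Ly6d (adjusted p = 0.482), and 0 of 8 members passed, beside 0.0361% of all genes. At an unadjusted p under 0.05 there were these 3 members and 2187 genes (9.86%). Tff3 was at 1.98 ± 1.24 (adjusted p = 0.639) and Afp at -0.58 ± 0.42 (adjusted p = 0.690).

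Likeness between genes was described by Pearson's r. The KO livers form a cluster apart for Ly6d, Apela and Golm1, so r is given within the 6 KO and within the 8 HET and WT livers, with no test. Livers in a cluster share genotype and, in part, diet. Ly6d and Apela ran together within the KO livers (r = 0.97) and not within the controls (r = -0.16), where Apela is below the medians. Golm1 had r = 0.89 with Ly6d and 0.94 with Apela within the KO livers, and -0.23 and -0.60 within the controls. Outside the members, the genes most like Ly6d over the 14 arrays were Cidea, a lipid droplet protein, and Prc1, a protein of the dividing spindle, with r of 0.85 and 0.90 within the KO livers. Those most like Apela were Slc7a11, the cystine transporter, and Tmem176b, a membrane protein (0.88 and 0.99). Those most like Golm1 were Scube3, a secreted protein, Elovl7, a fatty acid elongase, and Aqp7, a glycerol channel (0.98, 0.95 and 0.96).

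**Figure D3:**
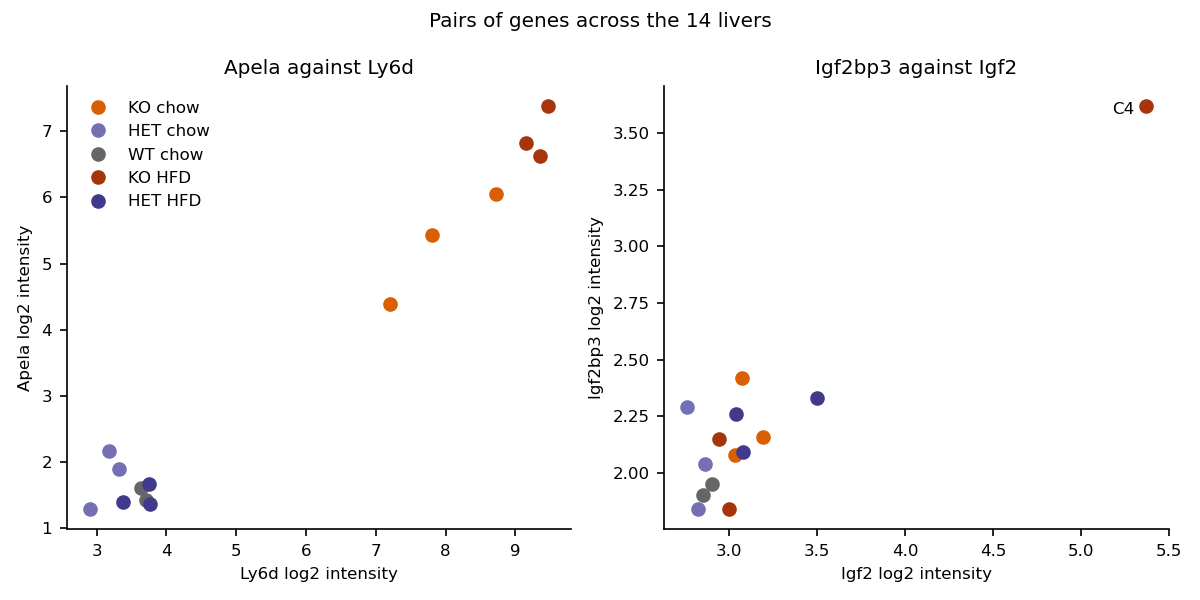
Apela against Ly6d (left) and Igf2bp3 against Igf2 (right), as log2 intensities, with 1 point per liver coloured by group. The 6 KO livers lie along a line for Ly6d and Apela, apart from the 8 HET and WT livers, whereas the relation of Igf2 and Igf2bp3 rests on liver C4.

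For Igf2 and Igf2bp3 likeness rests on liver C4. Igf2 and Igf2bp3 had r = 0.932 over all 14 arrays and 0.48 without C4. The next most like Igf2 were Ptgds, a prostaglandin synthase, and Tmem54, at 0.916 and 0.914 with C4 and -0.11 and -0.21 without it. Igf2bp3 was next most like Ptgds (0.912, and 0.29 without C4) and Slc6a19, an amino acid transporter (0.882, and 0.30 without C4). Gpc3 was most like Slc10a6, Eprn and Nmb, at 0.899, 0.892 and 0.889, and at 0.72, 0.62 and 0.68 without I1. Afp was most like Fbxl4, Cln8 and Pde6c (0.832, 0.809 and 0.806), at 0.73, 0.73 and 0.68 without I1. Tff3 was most like Nid2, a basement membrane protein, Esm1, an endothelial proteoglycan, and Amz2, at r = 0.920, 0.914 and 0.893, and each had r of 0.80 or more within KO livers and 0.94 within the controls.

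The genes that lie beside the members on the chromosome were read in the same contrasts. In the RefSeq gene order 16 named neighbours of Ly6d, Apela, Igf2 and H19 were measured, and 0 were called in KO against HET livers on chow or on HFD (limma). At an unadjusted p under 0.05 there were 2 on each diet, beside 13.4% of all genes on chow and 20.5% on HFD, so the counts are not set apart from the background. Next to Ly6d lie other members of its family: Lynx1 was at 0.14 ± 0.25 on chow and 0.75 ± 0.25 on HFD (adjusted p = 0.100), and Ly6g6g at -0.10 ± 0.12 and -0.08 ± 0.12. Next to Apela, Smim31 was at -0.04 ± 0.10 and 0.00 ± 0.10, and Marchf1 at 0.01 ± 0.14 and 0.42 ± 0.14 (adjusted p = 0.0872). Next to Igf2, the antisense Igf2os was at -0.18 ± 0.13 and 0.02 ± 0.13 and Ins2 at -0.49 ± 0.17 and -0.29 ± 0.17.

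Calls among other oncofetal and liver tumour marker genes fell mostly on HFD, and most of the list was not called. For KO minus HET on HFD the uncalled genes ran from -0.51 ± 0.27 (Trim71) to 1.18 ± 0.43 (Gpc1). They included Lin28b (0.15 ± 0.09), Sall4 (0.13 ± 0.15), Hmga2 (-0.02 ± 0.13), Dlk1 (-0.04 ± 0.09), Plag1 (-0.31 ± 0.23) and Epcam (0.83 ± 0.29). A return of a fetal programme as a whole was not tested. Of 31 measured genes in this list 10 were higher and 0 lower in KO than HET livers on HFD, beside 5.50% and 2.06% of all genes, with a list median of 0.46. Without I1 and C4, a setting chosen after seeing the data, the counts on HFD were also 10 and 0. On chow 2 were higher and 0 lower against HET (median 0.21; 1 and 0 without I1 and C4), and 2 and 0 against WT (median 0.32). Spink1, a trypsin inhibitor, rose most on HFD: it had 6.50, 6.27 and 7.12 in KO livers, against 2.07, 1.68 and 2.53 in HET livers (4.54 ± 0.75, adjusted p = 0.00295). On chow Spink1 was at 4.34 (H1), 3.19 (H2) and 7.38 (I1) in KO livers, against 2.92, 3.02 and 2.20 in HET livers, so that here too I1 stood above the other chow livers. Nqo1, a quinone reductase, was at 8.54, 8.27 and 8.94 in KO livers on HFD, against 5.27, 5.20 and 5.15 in HET livers, a rise of 3.38 ± 0.22 (adjusted p = 2.35e-06). Sox4, a progenitor transcription factor, was at 6.21, 6.38 and 5.90 in KO livers on HFD, against 2.40, 2.98 and 3.67 in HET livers (3.15 ± 0.27, adjusted p = 2.98e-05). The other 7 were Lcn2, a lipocalin (3.24 ± 0.49), Cap2, an actin-binding protein (2.14 ± 0.36), Tspan8, a tetraspanin (2.04 ± 0.38), the surface proteins Cd24a (1.48 ± 0.29), Cd44 (1.32 ± 0.27) and Prom1 (1.32 ± 0.25), and Hk2, a hexokinase scarce in adult hepatocytes (1.21 ± 0.26).

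On chow the called genes of this list were Nqo1 (1.33 ± 0.22, adjusted p = 0.00683) and Gpc1, a relative of Gpc3 (2.25 ± 0.43, adjusted p = 0.0174), against HET, and Nqo1 (1.39 ± 0.24) and Sox4 (1.67 ± 0.30) against WT. Nqo1 was the gene of this list with a called diet change in HET livers (-1.33 ± 0.22, adjusted p = 0.0326) and with a called interaction (2.05 ± 0.31, adjusted p = 0.0450). Some calls rested on single arrays, and the adjusted p without them was as follows: on HFD Hk2 (0.0577 to 0.0628 without A2 or C2), on chow Gpc1 (0.0695 to 0.0866 without I1, H2, F1 or F2), against WT Sox4 (0.0644 to 0.115 without G1 or N1) and Nqo1 (0.156 without N1), for diet Nqo1 (0.0581 to 0.134 without F1, F2, H2, A2, B1, B2 or C2) and for the interaction Nqo1 (0.0750 to 0.152 without F1, F2, H1, H2, A2, B1, B2, C2 or C4). With age as a linear term Nqo1 turned to -1.09 on chow and Cd44 to -0.22 on HFD.

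**Figure D4:**
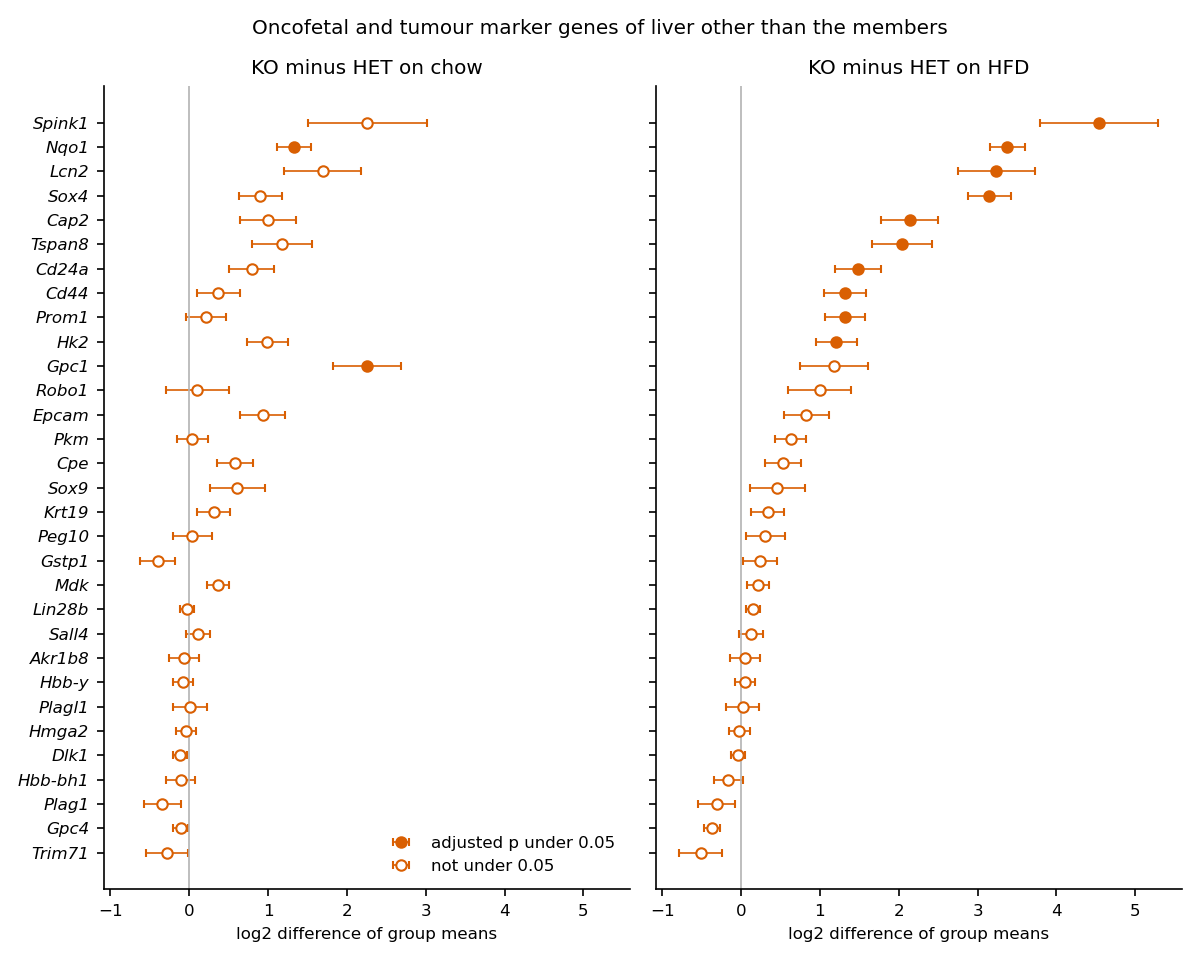
Log2 difference of KO minus HET means with its standard error for the 31 measured oncofetal and tumour marker genes other than the members, on chow (left) and on HFD (right), ordered by the HFD value. Filled points passed an adjusted p under 0.05, 2 on chow and 10 on HFD.

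Among regulators of Afp and of the fetal programme the few genes called were lower in KO livers. Of 18 measured genes 0 rose and 2 fell in each of the 3 KO contrasts. Over all genes 0.478% were called lower against HET on chow, 0.41% against WT and 2.06% on HFD. Onecut1, a hepatocyte transcription factor also called HNF6, was at 6.22, 6.04 and 5.87 in KO livers on chow, against 9.10, 9.41 and 7.98 in HET and 9.42 and 9.69 in WT livers. This was a fall of -2.78 ± 0.40 against HET (adjusted p = 0.0027) and -3.51 ± 0.45 against WT (adjusted p = 0.00123). On HFD its groups overlapped, at 8.19, 8.36 and 7.43 in KO livers against 7.65, 7.78 and 6.35 in HET livers. The KO mean was the higher one there (7.99 against 7.26). The Onecut1 interaction of genotype and diet was 3.52 ± 0.57 and was not called (adjusted p = 0.0544, limma). It holds the age differences between groups. Onecut2 also fell against HET on chow (-0.59 ± 0.14), Foxa1 against WT (-1.24 ± 0.26), and on HFD Hnf4a (-0.36 ± 0.10) and Nr0b2, the repressor SHP (-0.98 ± 0.26). With median centring 11 of the 18 were called lower on HFD, beside 3543 of all 22180 genes. Without I1 and C4 0 of the 18 fell on HFD. Calls were lost without single arrays for Onecut2 (0.0509 to 0.180 without F1, F2, H1, H2, I1, A2, B1, B2, C2, C3 or C4), Foxa1 (0.0519 to 0.283 without G1, N1, H2, I1 or C2), Hnf4a (0.0522 to 0.156 without F1, F2, H1, H2, A2, B1, B2, C2, C3 or C4) and Nr0b2 (0.0519 to 0.149 without F2, B1, B2, C2, C3 or C4). With age as a linear term Onecut2 turned to 0.10.

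Of 6 measured Zhx2 targets of adult liver other than the members, 1 rose against HET and 1 against WT on chow, 3 rose on HFD and 0 fell. Over all genes 1.44%, 1.24% and 5.5% were called higher in these contrasts. Cyp4a12a, a male-biased fatty acid hydroxylase, rose against HET on both diets (1.08 ± 0.21 and 1.31 ± 0.21) but was at 0.51 ± 0.24 against WT on chow (adjusted p = 0.434), and Cyp2a4, a female-biased steroid hydroxylase (3.47 ± 0.52), and Lpl, lipoprotein lipase (1.77 ± 0.42), rose on HFD. Against WT Cyp2b9, a female-biased cytochrome, rose by 6.37 ± 1.38. It varied widely among control livers: HET liver P1 on chow was at 8.51, inside the KO range of 8.35 to 8.99. KO minus HET on chow was 3.24 ± 1.23 (adjusted p = 0.253, limma), and HET minus WT was 3.13 ± 1.38. Calls rested on single arrays for Cyp4a12a on chow (adjusted p 0.0818 to 0.0944 without H2, I1 or F1), Lpl (0.0635 to 0.0833 without C2, C4, A2 or B1) and Cyp2b9 (0.0508 to 0.232 without any of the KO arrays H1, H2, I1, C2 and C3 or the WT arrays). Lpl turned to -0.78 with age as a linear term. The list was not sorted by the direction in which Zhx2 acts on each gene, and a part of Zhx2 in these differences was not tested.

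Imprinted genes and the IGF system, the families of H19 and Igf2, were read next. Of 26 measured imprinted genes 0 were called on chow in either direction (4 against HET and 4 against WT at an unadjusted p under 0.05, limma, beside 13.4% and 11.8% of all genes). On HFD, where 5.50% of all genes were called higher and 2.06% lower, Impact (1.03 ± 0.24) and Cd81, a tetraspanin (0.52 ± 0.10), rose and Kcnq1ot1, an imprinted non-coding RNA (-0.78 ± 0.17), fell. Of 17 measured genes of the IGF system 2 fell on chow against HET and against WT: Igf1, the adult liver's growth factor (-0.58 ± 0.12 and -0.65 ± 0.14), and Igfals, its carrier subunit (-0.80 ± 0.17 and -0.86 ± 0.19). The shares of all genes called lower there were 0.478% and 0.41%. On HFD Igfbp2 (-1.23 ± 0.22) and the insulin receptor Insr (-0.47 ± 0.11) fell and Igfbp7 (0.59 ± 0.15) rose. Igfbp2 was also lower on HFD than on chow in KO livers (-1.24 ± 0.22, adjusted p = 0.0340). Calls lost without single arrays were Igf1 on chow (adjusted p 0.0956 to 0.142 without I1, H2, F1 or F2) and against WT (0.0994 to 0.255 without H2, I1, G1 or N1), Igfals (0.0695 to 0.121 without I1, H2, F2 or P1) and against WT (0.0533 to 0.277 without G1, N1, F2, H2, I1, A2 or C2), Impact (0.0555 to 0.0846 without A2, B1, C2, C3 or C4), Kcnq1ot1 (0.0516 to 0.0607 without A2, C3 or C4), Insr (0.0605 to 0.0724 without A2, B1, C2 or C3), Igfbp7 (0.0666 to 0.116 without A2, B1, B2, C2 or C4) and Igfbp2 for diet (0.0501 to 0.158 without F1, H1, H2, A2, C2, C3 or C4). With age as a linear term Igfals turned to 0.70 and 0.62 on chow, Impact to -0.45 and Igfbp7 to -0.23.

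The receptor side of Apela did not pass in any contrast. Of 3 measured genes of the apelin system 0 were called (limma), with 1 at an unadjusted p under 0.05. This was Mme, neprilysin, a protease that cleaves apelin, which was at 1.09 ± 0.34 on HFD (adjusted p = 0.0722) and 0.70 ± 0.34 on chow (adjusted p = 0.401). Aplnr, the receptor, was at -0.23 ± 0.17 on chow (adjusted p = 0.629), and the other ligand Apln at 0.13 ± 0.13 on HFD (adjusted p = 0.634).

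Of 28 measured LY6 family genes other than Ly6d, 2 rose against HET on chow, 3 on HFD and 2 against WT. The shares of all genes called higher were 1.44%, 5.5% and 1.24%. Ly6e, a widely expressed interferon-induced member, rose by 1.42 ± 0.21 on chow and 1.66 ± 0.21 on HFD, and Ly6c2, a monocyte marker, by 2.63 ± 0.36 and 2.65 ± 0.36. Both also rose against WT (1.69 ± 0.23 and 2.88 ± 0.40). Plaur, the urokinase receptor, rose on HFD (0.95 ± 0.19), and Ly6h fell against WT (-0.77 ± 0.14), a call lost without N1 or I1 (adjusted p = 0.0575 to 0.190). Ly6h was dim, at 1.11 to 1.43 in KO, 1.34 to 1.47 in HET and 1.85 and 2.28 in WT livers on chow, and HET livers were as far below WT (-0.66 ± 0.14, adjusted p = 0.626) while KO minus HET was -0.11 ± 0.13. With age as a linear term Ly6e turned to -2.19 against HET and -1.86 against WT on chow. With median centring 5 of the 28 were called lower on HFD, beside 3543 of all 22180 genes, so nothing is read from this count.

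Among the 10 measured glypicans, syndecans and Notum, Gpc1 rose on chow as given above, and on HFD the syndecan Sdc4 (-0.85 ± 0.11) and Notum, an enzyme that inactivates Wnt (-1.03 ± 0.28), fell. Among all genes 5.5% were called higher and 2.06% lower on HFD, and 1.44% and 0.478% against HET on chow. Of 3 other albumin family genes Albfm1 fell in each KO contrast (-1.47 ± 0.23 against HET and -1.38 ± 0.25 against WT on chow, -1.08 ± 0.23 on HFD), and Afm, which carries vitamin E, fell on HFD (-0.82 ± 0.12). Of 14 measured trefoil, mucin and Golgi partners 4 rose on HFD: the mucins Muc13 (3.00 ± 0.29) and Muc1 (1.54 ± 0.26), Golm2, the relative of Golm1 (1.36 ± 0.34), and the receptor Cxcr4 (1.99 ± 0.51). Muc13 was at 4.53, 5.11 and 5.92 in KO livers on HFD and at 2.74, 3.14 and 3.30 in KO livers on chow, and this diet change was called (2.13 ± 0.29, adjusted p = 0.0111). Calls lost without single arrays were Notum (0.0719 to 0.128 without A2, B1, B2, C2 or C4), Albfm1 against WT (0.0520 to 0.140 without G1, H2 or I1) and on HFD (0.0502 to 0.0542 without B1 or C4), Golm2 (0.0637 to 0.112 without A2, B2, C2 or C4), Cxcr4 (0.0755 to 0.120 without A2, B1, C2, C3 or C4) and Muc13 for diet (0.0610 without H1). Notum turned to 0.06 with age as a linear term.

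Markers of cell types that could carry these genes were read in the same livers. In bulk tissue, fewer cells of a type and less RNA per cell cannot be told apart. Beside the marker counts below, 1.44% of all genes were called higher against HET on chow, 1.24% against WT and 5.5% on HFD. The shares called lower were 0.478%, 0.41% and 2.06%. Of 11 measured proliferation markers 8 rose against HET on chow, 7 against WT and 10 on HFD. Without I1 and C4 the counts were 3, 5 and 10, and with age as a linear term 0 in each. Without single arrays they ran from 3 to 11 against HET on chow (3 without F2, H2 or I1 and 5 without F1), from 1 to 9 against WT (1 without N1 and 4 without G1) and from 8 to 10 on HFD. Their mean log2 level was 3.71 to 4.60 in KO against 2.90 to 3.12 in HET and 2.84 to 2.98 in WT livers on chow, and 4.21 to 4.38 in KO against 2.76 to 2.95 in HET livers on HFD. The 12 cholangiocyte markers, of the cells that express Tff3 and mucins in bile ducts, stood at 3.72 to 4.23 in KO against 3.38 to 3.57 in HET and 3.37 to 3.45 in WT livers on chow, and at 3.75 to 4.18 against 3.39 to 3.42 on HFD. Of these 0 were called on chow (3 against HET at an unadjusted p under 0.05, limma) and 2, Muc1 and Prom1, on HFD.

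Of 9 squamous epithelium markers, a source of Ly6d in skin, Sprr1a was called in each KO contrast (2.55 ± 0.32 and 2.93 ± 0.35 on chow, 4.18 ± 0.32 on HFD). The list as a whole was dim, at 2.09 to 2.19 in KO against 1.83 to 1.88 in HET and 1.76 to 1.84 in WT livers on chow and 2.35 to 2.40 against 1.89 to 1.93 on HFD. These are means that include Sprr1a, the only gene called. The median difference of the list was 0.05 against HET on chow, 0.04 against WT and 0.05 on HFD. The 10 B lymphocyte markers, another source of Ly6d, stood at 2.12 to 2.35 in KO against 2.00 to 2.27 in HET and 2.32 to 2.35 in WT livers on chow, and at 2.30 to 2.48 against 2.09 to 2.26 on HFD, with 1 of 10 called on each diet against HET. This was Cd22, higher by 0.68 on chow and 0.79 on HFD. Its chow call was lost without G1, N1, F1, F2, P1, H1, H2 or B1 (adjusted p = 0.0525 to 0.152, limma). With age as a linear term its chow difference was 0.03. The 12 goblet and gut markers had 0 called (2 against HET on each diet at an unadjusted p under 0.05, limma) and lay at 1.97 to 2.20 in KO against 1.71 to 1.80 in HET and 1.74 to 1.91 in WT livers on chow, and 1.86 to 2.39 against 1.79 to 1.88 on HFD. The 6 erythroid and fetal blood markers had 0 called, 0 also at an unadjusted p under 0.05 (limma), and lay at 1.58 to 1.99 in all 14 livers. Of 9 hepatocyte markers 0 were called on chow (2 against HET and 0 against WT at an unadjusted p under 0.05, limma), and on HFD Apoa1 (-0.41 ± 0.10) and Apob (-0.36 ± 0.10), apolipoproteins, and Cps1, a urea cycle enzyme (-0.53 ± 0.09), fell. The calls of Apoa1 (adjusted p 0.0516 to 0.133 without A2, B2, C2, C3 or C4) and Apob (0.0530 to 0.15 with any 1 array left out other than P1, H2 and I1) were lost without single arrays. The 9 markers lay at 12.10 to 12.17 in KO against 12.18 to 12.20 in HET and 12.20 to 12.25 in WT livers on chow, and at 11.98 to 12.00 against 12.22 to 12.24 on HFD.

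Markers of macrophages and stellate cells moved in KO livers too, and the rises of Ly6c2, Cd44, Lcn2 and Plaur stand beside them. Of 15 macrophage and Kupffer cell markers 2 rose and 1 fell against HET and against WT on chow, and 4 rose and 1 fell on HFD. Cx3cr1, the fractalkine receptor, rose in each (2.61 ± 0.17 and 2.81 ± 0.19 on chow, 2.87 ± 0.17 on HFD), as did Trem2, a lipid receptor (1.42 ± 0.23, 1.31 ± 0.26 and 1.85 ± 0.23). Gpnmb (2.84 ± 0.57) and the complement subunit C1qb (0.94 ± 0.21) rose on HFD, whereas Timd4, found on long-lived Kupffer cells, was lower in each contrast (-1.52 ± 0.22 and -1.58 ± 0.25 on chow, -1.39 ± 0.22 on HFD). The list lay at 6.51 to 7.04 in KO against 5.95 to 6.78 in HET and 6.13 to 6.55 in WT livers on chow, and at 7.18 to 7.44 in KO against 6.26 to 6.88 in HET livers on HFD.

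Of 14 stellate cell and fibroblast markers 1 rose and 1 fell against HET on chow, 2 rose and 1 fell against WT, and 4 rose and 2 fell on HFD. The collagens Col1a1 (2.07 ± 0.41), Col1a2 (1.57 ± 0.28) and Col3a1 (1.46 ± 0.23) and the matrix protein Lum (1.26 ± 0.19) rose on HFD, where Reln (-0.76 ± 0.16) and Ecm1 (-0.95 ± 0.20) fell. On chow Lum rose (1.34 ± 0.19 against HET and 1.84 ± 0.21 against WT), Col3a1 rose against WT (1.12 ± 0.25), and Lrat, which stores retinol in stellate cells, fell (-1.22 ± 0.23 and -1.27 ± 0.26). The list lay at 6.15 to 6.43 in KO against 5.78 to 6.37 in HET and 5.68 to 6.09 in WT livers on chow, and at 6.46 to 6.70 in KO against 5.83 to 6.17 in HET livers on HFD.

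Calls lost without single arrays were Trem2 against WT (adjusted p 0.0812 to 0.155 without G1, N1, H2 or I1), Timd4 against WT (0.0538 without G1), C1qb (0.0653 to 0.0669 without A2 or C2), Ecm1 (0.0541 to 0.0630 without A2, C2 or C4), Col3a1 against WT (0.0554 to 0.372 with any 1 array left out other than F1, P1 and H1) and Lrat against HET (0.0527 to 0.0657 without F1, F2 or I1) and against WT (0.0543 to 0.210 without G1, N1, H1 or I1). Fitting age as a linear term turned C1qb to -0.23 and Col1a1 to -0.09 on HFD, and Col3a1 to -1.27 against WT. Of 11 T and NK lymphocyte markers Ncr1 rose on HFD (1.41 ± 0.39), and of 12 endothelial markers Stab2 fell on HFD (-0.40 ± 0.11), each with an adjusted p of 0.0461, and the call was lost when any 1 of 11 arrays was left out for Ncr1, and any 1 of 12 for Stab2, which age as a linear term turned to 0.06. On chow 0 of both lists were called (limma), with 0 and 1 against HET and 0 and 0 against WT at an unadjusted p under 0.05. The part of these cell types in the levels of Ly6d, Apela, Golm1, Tff3 and the other genes above was not tested.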

How the data were processed

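The log2 intensity of each probe set was used as deposited. Per the submitters' processing notes RMA and limma were applied, without versions. The sources used here do not state whether batches were adjusted for. Of 41345 probe sets 23521 carried 1 gene symbol, 1814 several and 16010 none. The brightest probe set was kept for each of 22180 genes, with no filter and no further scaling. The members and gene lists were chosen with earlier results of these data known.

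Group means were fitted to all 14 arrays together with limma 3.58.1 in R 4.3.3 (9 residual and 3.83 prior degrees of freedom). Calls are genes with a Benjamini-Hochberg adjusted p under 0.05 over the whole table of a contrast. The procedure was tested on simulated data. Replicates are livers of separate mice. Named are all members, Lmna, every called gene of a list (for a list with no call in any contrast, up to 2 genes with the smallest p), the 3 genes most like each member, and chromosomal neighbours. Of neighbours and cell type markers examples are given. Alternatives were a trended robust prior, array weights, removal of dim genes, averaging all probe sets with the same symbol, fits of only the groups compared, median centring, quantile normalization applied again, the mouse letter as a random block, age as a linear term, chow controls as 1 group, stricter thresholds, leaving out each array and, chosen after seeing the data, leaving out I1 and C4 together.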

Additional observations from a re-analysis of the deposited data

Results flagged for a closer look

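The probe set annotated with both H19 and Mir675 stood out outside the genes compared above. It was at 4.14 (C2), 3.39 (C3) and 8.56 (C4) in the KO livers on HFD, and at 1.38 to 2.06 in the other 11 livers: 1.48, 1.38 and 1.99 in KO, 2.06, 1.99 and 1.71 in HET and 1.39 and 1.48 in WT livers on chow, and 1.74, 1.65 and 1.59 in HET livers on HFD. All 3 KO livers on HFD were thus above every control liver, the lowest of them by 1.33, and C4, the liver with the high Igf2 and Igf2bp3, was the highest. Over the 14 arrays this probe set had r = 0.858 with Igf2 and 0.766 with Igf2bp3, and -0.139 and -0.394 without C4. Mir675 lies within the H19 transcript, and the annotation does not say which of the 2 the probes read, so the signal is assigned to neither.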

How the results depend on the processing

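The choice of members used the KO contrasts, so the members' calls there say nothing of how stable they are. The limits are the 2 or 3 livers per group, the dim level of Apela in controls and of Afp, Gpc3, Igf2 and Igf2bp3 in most livers, and the age gap between KO mice and the others. The diet groups of each genotype differed in age as well. Of the 57 called differences of list genes, 40 kept direction and call in fits of only the groups compared, 52 with the mouse letter as a random block and 5 with age as a linear term. The age term cannot separate age from genotype or diet here, so its values and counts say little of stability. No paired analysis was possible because the labels give no replicate number or animal that groups share. The cause of each shift below was not tested, except that fits of fewer arrays have fewer degrees of freedom and a stricter threshold calls fewer genes.

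Counts of all genes called moved as follows. For KO against HET on chow the 426 became 216 in a fit of only these groups, 201 with age as a linear term, 670 with WT and HET as 1 chow group, 157 at an adjusted p under 0.01 and 199 to 520 without single arrays (258 without F1, 199 without F2, 215 without H2, 202 without I1). For KO against WT the 367 became 162, 124, 670 and 151 under the same 4 settings and 154 to 411 without single arrays (232 without G1, 154 without N1, 244 without H2, 213 without I1). For HET against WT the 0 became 1 with the dim filter, 1 with a second quantile normalization, 1 with age as a linear term and 0 to 10 without single arrays. For KO against HET on HFD the 1677 became 4458 with median centring, 249 with age as a linear term, 705 at an adjusted p under 0.01 and 971 to 1788 without single arrays (1038 without C2, 971 without C4). For HFD against chow in HET the 44 became 67 with array weights, 3 in a fit of only these groups, 271 with age as a linear term, 13 at an adjusted p under 0.01 and 13 to 164 without single arrays. For HFD against chow in KO the 70 became 110 with a trended robust prior, 221 with array weights, 45 in a fit of only these groups, 44 with the mouse letter as a random block, 132 with age as a linear term, 9 at an adjusted p under 0.01 and 13 to 119 without single arrays. For the interaction the 8 became 24 with a trended robust prior, 29 with array weights, 29 with the dim filter, 5 with the mouse letter as a random block, 206 with age as a linear term, 1 at an adjusted p under 0.01 and 0 to 43 without single arrays.

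Counts of members called moved to 0 with age as a linear term against HET and to 0 against WT on chow, and to 2 to 4 against WT without single arrays. For HFD against chow in KO they moved to 1 with a trended robust prior, 2 with array weights, 1 with the dim filter and 0 to 2 without single arrays. With age as a linear term 1 member, Tff3, was called for HFD against chow in HET (-6.61, adjusted p = 0.0327) and 1, again Tff3, for the interaction (11.39, adjusted p = 0.0406).

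Age as a linear term turned the sign of Nqo1 (-1.089), Onecut2 (0.104), Igfals (0.696) and Ly6e (-2.194) against HET on chow, of Nqo1 (-0.99), Igfals (0.618) and Ly6e (-1.864) against WT, and of Cd44 (-0.223), Lpl (-0.776), Impact (-0.445), Igfbp7 (-0.233) and Notum (0.058) on HFD. Among uncalled member differences it turned Gpc3 (0.257) and Golm1 (0.496) for diet in HET, Gpc3 (-0.188) and Igf2bp3 (-0.036) for diet in KO, and Gpc3 (-0.445) and Igf2bp3 (-0.651) in the interaction. A second quantile normalization turned Golm1 for diet in HET (0.014). Leaving out single arrays, or I1 and C4 together, gave ranges across 0 for Gpc3 (-0.478 to 0.328), Golm1 (-0.168 to 0.044) and Tff3 (-1.136 to 2.191) in HET against WT, for Afp (-0.191 to 0.321), Gpc3 (-0.256 to 0.073) and Golm1 (-0.176 to 0.138) for diet in HET, for Gpc3 (-0.329 to 1.016), Igf2 (-0.16 to 1.088) and Igf2bp3 (-0.293 to 0.663) for diet in KO, and for Gpc3 (-0.219 to 1.125), Igf2 (-0.554 to 0.694) and Igf2bp3 (-0.463 to 0.493) in the interaction.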
